A study of Mus musculus with 294 samples.

Results

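A list of 10 genes, named as genes of fetal immaturity, was followed in single neural crest cells of the embryonic mouse heart. It holds the chromatin gene Hmga2, the transcription factor genes Sox4 and Sox11, the RNA-binding genes Igf2bp1, Igf2bp2, Igf2bp3 and Lin28b, and Bex2, Asb4 and Stmn4. Of the 10, 9 were matched to the 15124 genes of the count table; Lin28b is not analysed here. The list was drawn up from these same data, with the genes' levels by cell name and their relation to the matrix genes Dcn and Eln in view, so those 2 patterns are given as a description without a test.

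The cells came from the region of the aorticopulmonary septum, which divides aorta and pulmonary artery, in Wnt1-Cre; R26-EYFP embryos of 4 ages: E11.5 or E12.5, and later E14.5 or E17.5. In these mice a Wnt1 driver switches on the yellow fluorescent protein EYFP in the neural crest lineage, and EYFP-positive cells were sorted and captured singly on Fluidigm C1 chips. Each cell was sequenced singly, with 34046 to 3033857 reads per cell. All cells share tissue, genotype and sort and no label gives a cell's age, animal or chip, so they formed 1 group without replicates, and the name of the list as genes of immaturity could not be checked against age. Cells were set apart by the first digit of the cell name, called the name series here, whose meaning the labels do not give. Name series 1 to 7 held 58, 48, 38, 38, 34, 34 and 44 cells. All 8 mesenchymal markers were detected, some in nearly all cells and others in fewer: Vim reached 10 CPM (counts per 1000000 reads of the cell) in 100% of cells, Col3a1 in 99.7% and Postn in 98%, but Pdgfra in 78.6%, Prrx1 in 73.5% and Twist1 in 59.2%.

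HMGA2 binds the minor groove of AT-rich DNA through AT-hooks and is abundant in embryonic mesenchyme and scarce in most adult tissues. SOX4 and SOX11 are single-HMG-box factors of the SoxC group that are needed for normal outflow tract formation. The IGF2BP proteins bind and protect messenger RNAs such as those of Igf2, Myc and Actb and are known as oncofetal proteins. LIN28B blocks maturation of the let-7 microRNAs, whose rise with development represses messages that carry let-7 sites. Decorin, encoded by Dcn, decorates collagen fibrils, and Eln encodes tropoelastin, the building block of elastic fibres in the arterial wall.

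Because Hmga2 and the Igf2bp genes are textbook let-7 targets, the 3' untranslated regions of the list were searched for the let-7 seed match. All 8 mature let-7 5p sequences in RefSeq on GRCm38.p6 share bases 2 to 8, shown in capitals for 1 of them:
mmu-let-7a-5p: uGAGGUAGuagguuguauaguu
The motif searched on the messenger strand was CTACCTC, the complement of that seed, in the longest 3' untranslated region of each gene in GENCODE M21 on GRCm38. The matches found in 4 of the 9 genes are given 5′ to 3′, with the 7 bases that pair with the seed in capitals:
Hmga2 match 1: gccgacattcaatttCTACCTCagca
Hmga2 match 2: ccccactcctcaataCTACCTCtgaa
Hmga2 match 3: ctgatttgcaaggaaCTACCTCcaca
Hmga2 match 4: aatcaaaacacactaCTACCTCttaa
Igf2bp1 match 1: gctgtgcgaagtaaaCTACCTCaagg
Igf2bp1 match 2: cagcagtgctattaaCTACCTCagcc
Igf2bp1 match 3: gtataaatggatgaaCTACCTCagtc
Igf2bp1 match 4: acttttggttttaatCTACCTCttag
Igf2bp2 match 1: acacacaaataaaagCTACCTCaggt
Igf2bp3 match 1: tgcatttttactcaaCTACCTCaggt

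Hmga2 held 4 matches in 3014 bases and Igf2bp1 held 4 in 6337 bases, spread along the region as the map of matches shows. Igf2bp2 and Igf2bp3 each held 1 match, in 1784 and 2119 bases. An A follows the match at 1 of the 4 places in Hmga2 and at 3 of the 4 in Igf2bp1. It also follows the single matches in Igf2bp2 and Igf2bp3. Among 8391 genes at 10 CPM in at least 10% of cells and with such a region, 9.87% held a match. Long regions hold more: among 1426 of these genes with a region within 25% of the length of Hmga2's, 14.2% held a match and none held 4. Of 370 genes close in length to Igf2bp1, 31.9% held a match and none held 4. Outside both length ranges, Hic2 and D10Wsu102e also held 4 matches, in 4262 and 122583 bases. The letters CTACCTC were not found in Sox11, Sox4, Bex2, Asb4 or Stmn4, of which Sox11 has the longest region, at 6957 bases, and Bex2 the shortest. A match is a string of letters, not a shown site of repression, and mature let-7 was not measured by this assay.

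**Figure D1:**
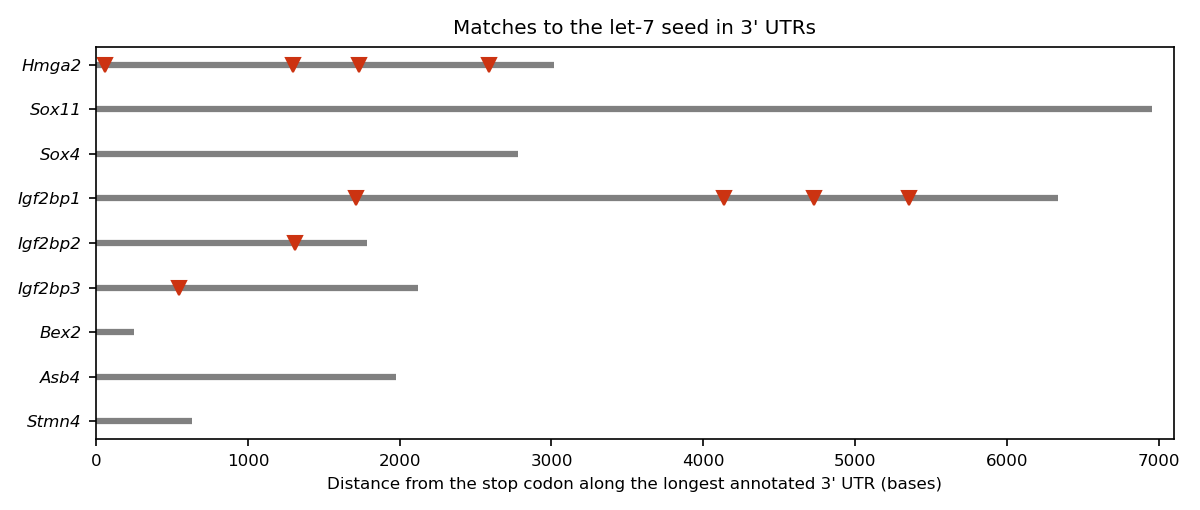
Each grey bar is the longest annotated 3' untranslated region of 1 gene, drawn in bases from the stop codon, and each triangle is a match to the let-7 seed. Hmga2 and Igf2bp1 carry 4 matches each, Igf2bp2 and Igf2bp3 carry 1, and the other 5 genes carry none.

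Per length of annotated exon, levels averaged over all cells differed widely among the 9 genes. Bex2 was highest, at a mean of 109.9 CPM per kilobase of exon, followed by Asb4 at 50.6, Sox4 at 37.0, Hmga2 at 29.2 and Stmn4 at 25.1. Sox11 had 15.5 CPM per kilobase, and the RNA-binding genes were lowest, with 11.1 for Igf2bp3, 9.85 for Igf2bp2 and 6.01 for Igf2bp1. This order is that of the mean over all cells and differed between name series. In series 2, Igf2bp3 and Igf2bp2 had 11.9 and 11.3 CPM per kilobase, above Asb4 (6.25), Stmn4 (3.43), Sox11 (2.84) and Hmga2 (2.54), while in series 5 Hmga2 was second to Bex2 at 113.9. Dcn, for comparison, had 477.6 CPM per kilobase. The order by share of cells was another one. Sox4 reached 10 CPM in 80.3% of cells (exact Clopper-Pearson 95% interval 75.3% to 84.7%), while Bex2 did so in 36.4% (30.9% to 42.2%), at a median of 187.3 CPM in those cells compared with 132.5 CPM for Sox4.

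A cell held a median of 4 of the 9 genes at 10 CPM (95% interval 4 to 5). Name series 2 was lowest, with a median of 2 genes per cell, followed by series 3 with 3 and series 1 with 4. The medians in series 4, 5, 6 and 7 were 6, 6, 5 and 5.5 genes. Cells with 6 or more of the 9 genes made up 10.3%, 2.08% and 13.2% of series 1 to 3, and 60.5%, 76.5%, 44.1% and 50.0% of series 4 to 7. The 1 such cell of series 2 and 1 of the 6 in series 1 had under 100000 reads, where a single read exceeds 10 CPM. All 9 genes together were found in 3 cells, 1 each of series 4, 6 and 7. The 6 cells with none came from series 1, 2 and 3 (1, 4 and 1 cells).

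All 9 genes had their highest share of cells in name series 4, 5, 6 or 7, as did 35.1% of the 8853 genes tested (those at 10 CPM in at least 10% of cells). For 6 of the 9, Hmga2, Sox11, Sox4, Igf2bp1, Asb4 and Stmn4, the share was higher in each of series 4 to 7 than in each of series 1 to 3, as it was for 1.89% of the genes tested. The list was chosen on this pattern, so nothing is read from either count.

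Hmga2 (ENSMUSG00000056758.14, chromosome 10, 120361275 to 120476469, minus strand) showed the widest range between name series. Its level ran from 0 to a median of 0.63 and a highest value of 335.8 CPM in series 1, and the medians of series 2 and 3 were 0, with highest values of 268.8 and 523.1 CPM. In series 4, 5, 6 and 7 its median was 120.5, 547.3, 65.7 and 66 CPM, with highest values of 1594, 4363, 2010 and 1428 CPM. Every series held cells at 0, so the ranges overlap, but most cells of series 1 to 3 lay under the level that most cells of series 4 to 7 passed. It reached 10 CPM in 9 cells each of series 1, 2 and 3 (15.5%, 18.8% and 23.7%), and in 73.7%, 94.1%, 70.6% and 70.5% of series 4 to 7. The intervals of series 1 to 3 end at 40.2% and those of series 4 to 7 begin at 52.5%. Within each of these runs neighbouring intervals overlap. Here and below, intervals cover counting error among cells only. Their overlap describes the series and is not a test between them. The level also differed among cells that had the gene: the median of cells at 10 CPM was 583.2 CPM in series 5 and 33.2 to 180.9 CPM in the other 6 series.

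**Figure D2:**
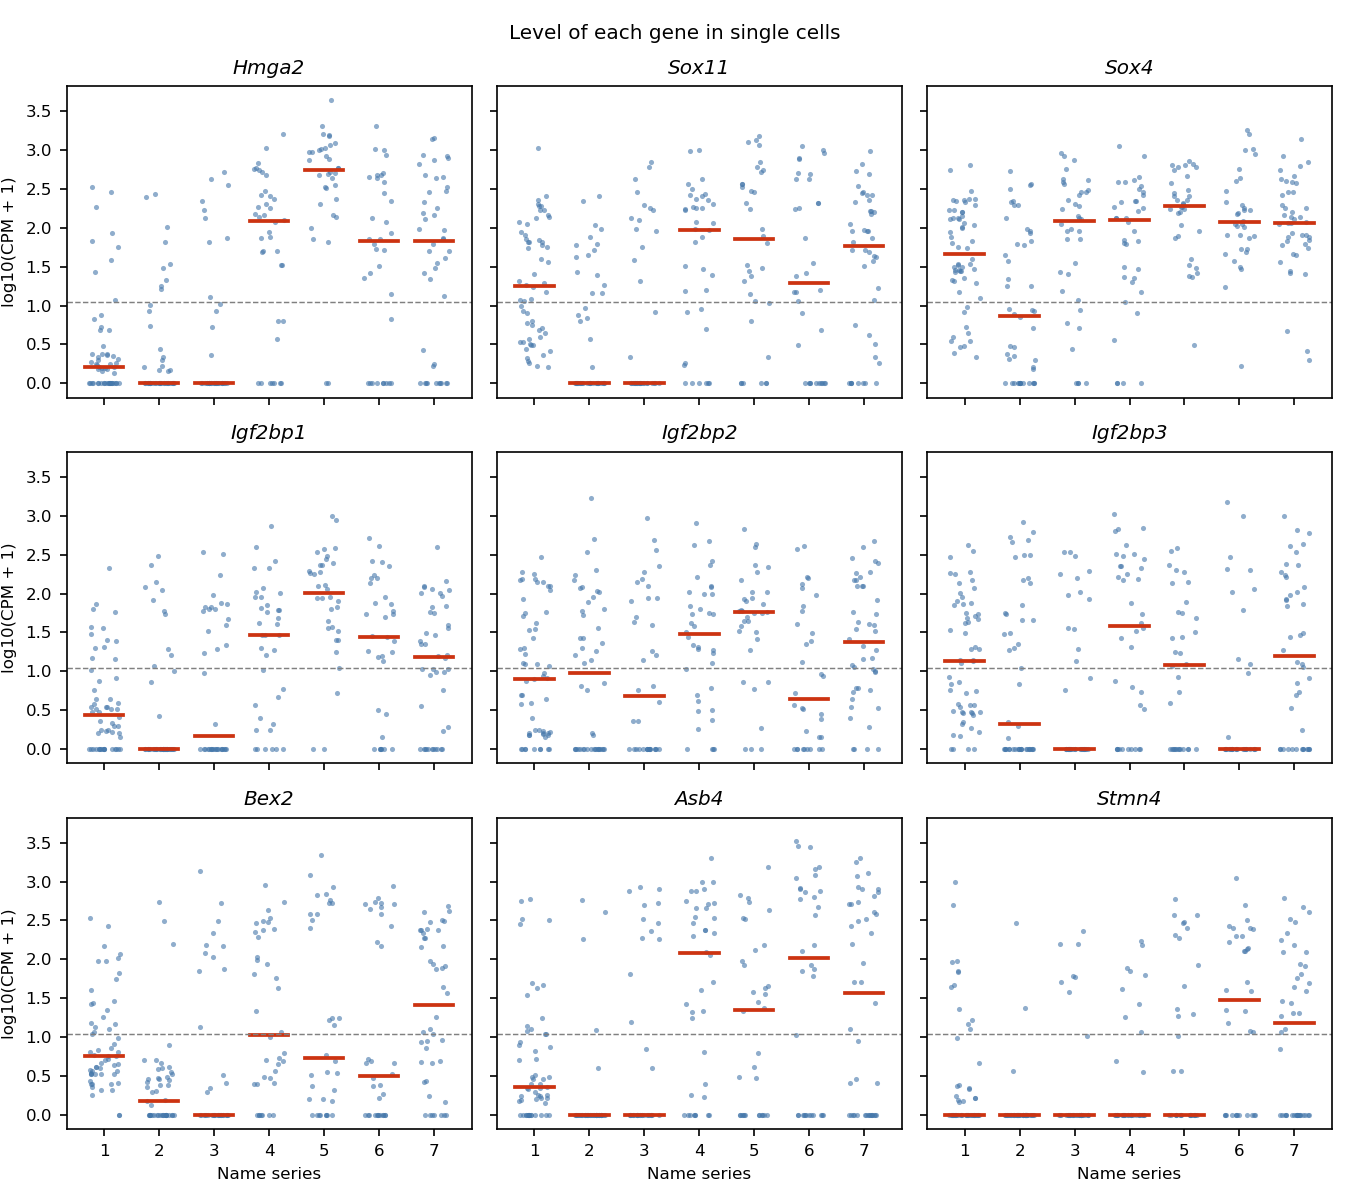
Each point is 1 cell, placed by name series (horizontal) and by log10(CPM + 1) of the gene named above the panel (vertical, log scale); red bars are medians and the dashed line marks 10 CPM. Hmga2 medians lie near 0 in series 1 to 3 and between 65.7 and 547.3 CPM in series 4 to 7, whereas Sox4 medians reach 46.3 CPM or more in every series but series 2.

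The SoxC genes were more widely present. Sox4 (ENSMUSG00000076431.4, chromosome 13, 28948919 to 28953713, minus strand) had medians of 46.3, 6.46 and 120.9 CPM in series 1 to 3 and between 115.6 and 125.2 CPM in series 4, 6 and 7, with a higher one in series 5. Its highest cell, at 1783 CPM, was in series 6. The shares of cells at 10 CPM were 81%, 41.7% and 78.9% in series 1 to 3 and 84.2%, 97.1%, 97.1% and 93.2% in series 4 to 7. Series 2 was lowest, with an interval (27.6% to 56.8%) that ends below that of every other series, and series 1 and 3 overlap series 4.

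Sox11 (ENSMUSG00000063632.6, chromosome 12, 27334264 to 27342574, minus strand) had medians of 16.9, 0 and 0 CPM in series 1 to 3 and of 93.6, 70.8, 18.7 and 57.9 CPM in series 4 to 7. Highest values ran from 251.9 CPM in series 2 to 1491 CPM in series 5. Its shares were 58.6%, 31.2% and 36.8% in series 1 to 3 and 71.1%, 73.5%, 61.8% and 70.5% in series 4 to 7. The interval of series 2 (18.7% to 46.3%) ends below those of series 4, 5 and 7, as does, by a narrow margin, that of series 3 (21.8% to 54.01%, with series 4 starting at 54.1%). Series 1 and 6 overlap all the others. Both Sox genes lie in a single exon, so reads from their messages and from genomic DNA cannot be told apart by splicing. Sox4, Hmga2 and Igf2bp1 share exon sequence with annotated genes on the other strand, and Igf2bp1 also with a microRNA gene on its own strand, so their counts are uncertain there. Sox4 and Sox11 were found together in 49.3% of cells (43.5% to 55.2%), Sox4 alone in 91, Sox11 alone in 22 and neither in 36. Series 2 held 20 of the 36 cells with neither.

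The 3 RNA-binding paralogs did not share 1 pattern. Igf2bp1 (ENSMUSG00000013415.9, chromosome 11, 95957163 to 96005940, minus strand) followed name series much as Hmga2 did. Its medians were 1.77, 0 and 0.56 CPM in series 1 to 3 and 28.5, 101.5, 26.7 and 14.2 CPM in series 4 to 7, with a highest cell of 986.2 CPM in series 5. The shares were 22.4%, 22.9% and 44.7% in series 1 to 3 and 63.2%, 88.2%, 70.6% and 52.3% in series 4 to 7. The interval of series 5 (72.5% to 96.7%) lies above those of series 1, 2, 3 and 7, while series 3 overlaps series 4, 6 and 7.

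Igf2bp2 (ENSMUSG00000033581.17, chromosome 16, 22059009 to 22163299, minus strand) was found in 44.8%, 50.0% and 44.7% of series 1 to 3 and in 68.4%, 79.4%, 41.2% and 63.6% of series 4 to 7. Series 5 was highest, with an interval (62.1% to 91.3%) above those of series 1, 3 and 6 only. Its highest cell, at 1683 CPM, was in series 2. Igf2bp3 (ENSMUSG00000029814.10, chromosome 6, 49085223 to 49214957, minus strand) was found in 53.4%, 43.8% and 34.2% of series 1 to 3 and in 60.5%, 52.9%, 29.4% and 56.8% of series 4 to 7. All 7 of its intervals overlap, so no order of the series stands out. Igf2bp3 shares exon sequence with Malsu1 on the other strand, and how the counting treated strand is not given in the sources used here, so its counts are uncertain there.

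At least 1 Igf2bp gene was present in most cells. None of the 3 reached 10 CPM in 47 cells (16%, with a 95% interval up to 20.7%), 1 did in 31.6%, 2 in 37.4% and all 3 in 15.0%. Cells with all 3 made up 8.62%, 2.08% and 5.26% of series 1 to 3 and 23.7%, 38.2%, 11.8% and 22.7% of series 4 to 7. In series 5, 0 of 34 cells lacked all 3; at the limit of 3 cells that a count of 0 allows, the share would be 8.82%.

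**Figure D3:**
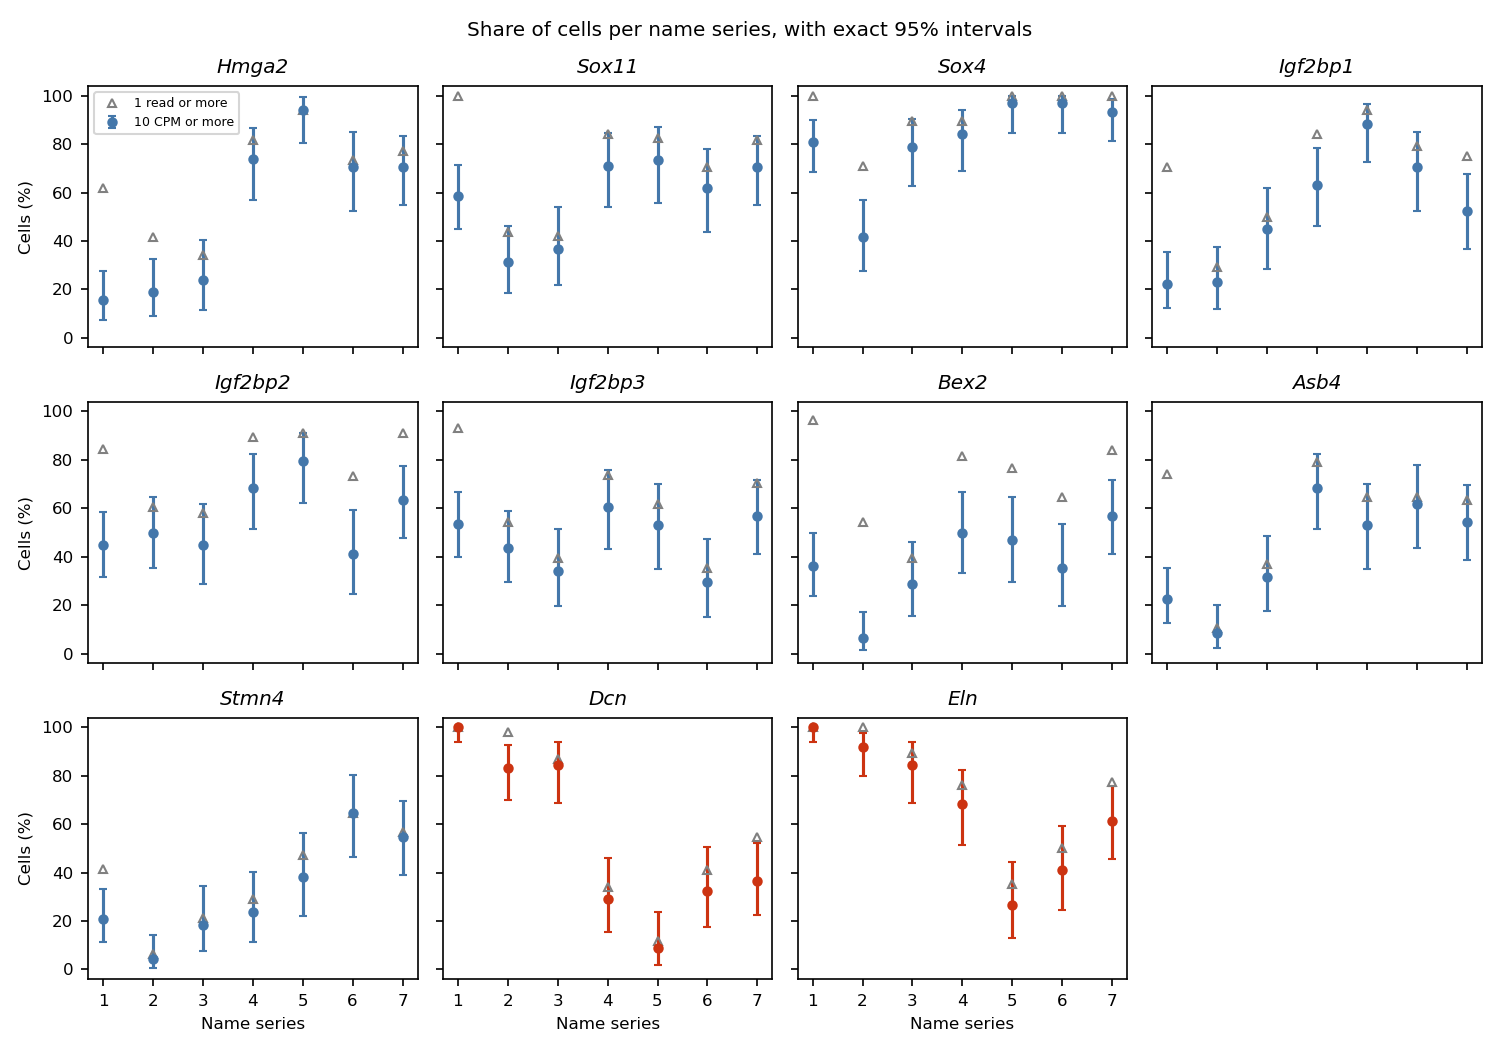
Filled points are the share of cells at 10 CPM or more in each name series, with exact 95% intervals for counting error, and open triangles are the share with 1 read or more; Dcn and Eln are in red. Hmga2 is at 23.7% or less in series 1 to 3 and at 70.5% or more in series 4 to 7, Dcn lies the other way round, and Igf2bp3 has overlapping intervals in all 7 series.

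Bex2, Asb4 and Stmn4 have less settled roles in heart tissue. Bex2 (ENSMUSG00000042750.7, chromosome X, 136066564 to 136068236, minus strand) belongs to a family of small X-linked proteins best known from brain. It was found in 36.2%, 6.25% and 28.9% of series 1 to 3 and in 50.0%, 47.1%, 35.3% and 56.8% of series 4 to 7. Series 2 lay below all but series 3, with an interval of 1.31% to 17.2%. The median of cells at 10 CPM ran from 27.8 CPM in the 21 such cells of series 1 to 495.2 CPM in the 12 of series 6, and the highest cell, in series 5, held 2165 CPM. Bex genes resemble each other in sequence, so reads could have been split among them and the values are uncertain.

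Asb4 (ENSMUSG00000042607.15, chromosome 6, 5383386 to 5433022, plus strand) encodes an ankyrin-repeat protein with a SOCS box, which recruits targets to a ubiquitin ligase. It was found in 22.4%, 8.33% and 31.6% of series 1 to 3 and in 68.4%, 52.9%, 61.8% and 54.5% of series 4 to 7. The interval of series 2, which starts at 2.32%, ends below those of all of series 4 to 7, and that of series 3 overlaps series 5, 6 and 7. The 4 cells of series 2 that had it had a median of 294.8 CPM, close to the 315.5 CPM of the 26 such cells in series 4. The highest cell, at 3302 CPM, was in series 6.

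Stmn4 (ENSMUSG00000022044.14, chromosome 14, 66344296 to 66361680, plus strand) encodes a stathmin, a protein that destabilises microtubules and is best known from neurons. Its shares were 20.7%, 4.17% and 18.4% in series 1 to 3 and 23.7%, 38.2%, 64.7% and 54.5% in series 4 to 7. It differed from the other genes in its peak: series 6 and 7 had intervals from 46.5% and 38.8% upward, above those of series 1, 2 and 3, whereas series 4 overlapped series 1 and 3. Its median was above 0 only in series 6 (30.1 CPM) and series 7 (14.7 CPM).

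Depth and background differed between the name series and bear on these shares. Median reads per cell ran from 635879 in series 3 to 1630832 in series 2. With every cell thinned to 200000 reads, 54, 43, 35, 37, 33, 34 and 43 cells of series 1 to 7 remained. Hmga2 then reached 10 CPM in 14.8%, 18.6% and 28.6% of series 1 to 3 and in 73%, 93.9%, 73.5% and 67.4% of series 4 to 7. Series 1 held 2051 genes with a read in each of its cells, more than any other series. In that series Sox4 and Sox11 had a read in 100% of cells, Bex2 in 96.6% and Hmga2 in 62.1%, most of them under 10 CPM for Hmga2 and Bex2. At 1 read or more, 5 of the 9 genes had their highest share in series 4 to 7, and at 100 CPM or more all 9 did.

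Genes of other cell types and of cell handling were set beside these levels. Of 12 neuron markers 10 were analysed, and their CPM were summed in each cell. The median of this sum over cells was 8.0, 0.48 and 0 CPM in series 1 to 3. It was 64.7, 65.1, 7.94 and 3.28 CPM in series 4 to 7. Over all series, the sum in single cells ran from 0 to 2437 CPM, and the highest cell was in series 3. Tubb3, a tubulin gene among these markers, was in 19.7% of all cells. Without the 6 cells that had 3 or more neuron markers, Stmn4 was in 29.5% of cells compared with 30.3%, and Sox11 in 55.9% compared with 56.8%. Without the 13 cells that had 3 or more of 7 glia markers, Hmga2 was in 49.5% compared with 48.3%. The 10 immediate early and stress genes had median sums per cell of 6226, 2102 and 5477 CPM in series 1 to 3 and of 653.6 to 1055 CPM in series 4 to 7. Median sums per cell of 7 cardiomyocyte markers were 12.3 CPM in series 4, 50.7 CPM in series 7, with a highest cell of 40185 CPM, and 4.04 CPM or less in the others. The part of these genes in the shares above was not tested.

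Dcn and Eln ran the other way across name series. Dcn had medians of 7120, 3332 and 1245 CPM in series 1 to 3, and of 0, 0, 0 and 0.64 CPM in series 4 to 7. Its shares of cells were 100%, 83.3% and 84.2%, and then 28.9%, 8.82%, 32.4% and 36.4%. Eln differed less, with shares of 100%, 91.7% and 84.2% in series 1 to 3 and 68.4%, 26.5%, 41.2% and 61.4% in series 4 to 7. Series 5 thus had the lowest shares of both matrix genes and the highest share of Hmga2, Sox11, Igf2bp1 and Igf2bp2, and it shared the highest share of Sox4 with series 6.

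Across all cells taken as 1 stratum, 8 of the 9 genes had a negative Spearman's correlation with Dcn, as did 17.3% of 8852 genes tested. The values were -0.46 for Hmga2, -0.34 for Igf2bp1, -0.28 for Sox4, -0.22 for Igf2bp2, -0.19 for Sox11 and Asb4, -0.15 for Stmn4, -0.10 for Bex2 and 0.00 for Igf2bp3. With Eln, 8 of 9 were again negative, from -0.35 for Hmga2 to -0.11 for Bex2, with Igf2bp3 at 0.06; 20.4% of genes tested were negative. These points share library depth and name series, and the genes were picked on this relation.

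Inside the name series this opposition was mostly not seen. The correlation was computed in each series where each gene, counted separately, was at 10 CPM in at least 5 cells. Fewer cells could hold both genes. The median over series was taken. With Dcn, 3 of 9 genes had a median under 0, compared with 42.1% of genes tested. Without the 94 cells with Mki67 at 10 CPM, a marker of cycling cells, 5 of 9 did. Hmga2 had a median of -0.14, but its values ran from -0.38 in series 3 to 0.28 in series 6. Only Igf2bp2, with a median of -0.14, was negative in all 6 series that gave a value, as were 3.47% of genes tested. Its values ran from -0.27 in series 3 to -0.003 in series 6 and -0.0008 in series 2, so the constant sign rests partly on very small values. The medians of Sox4 and Sox11 were -0.06 and 0.05, that of Igf2bp1 was 0.05, that of Asb4 was 0.10 and that of Stmn4 was 0.12.

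With Eln, 5 of 9 genes had a median under 0, compared with 46.3% of genes tested. Stmn4, with a median of -0.10, was negative in all 6 series that gave a value, as were 2.45% of genes tested. Its values ran from -0.27 in series 5 to -0.016 in series 3 and -0.009 in series 7. Sox4, at -0.12, was negative in 6 of 7, and Hmga2 had a positive median of 0.14. Values between -0.2 and 0.2 in sparse counts of 34 to 58 cells are weak.

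**Figure D4:**
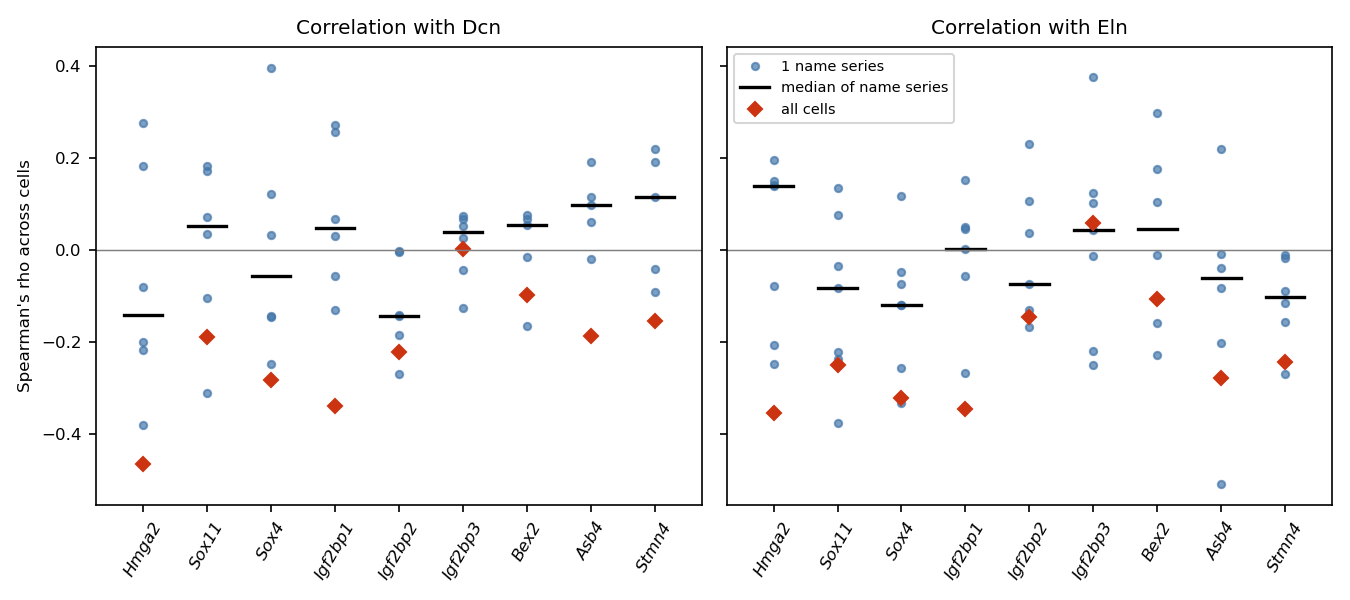
For each gene, blue points are Spearman's correlations with Dcn (left) or Eln (right) across the cells of 1 name series, black bars are their medians, and red diamonds are the correlation over all cells. The diamonds lie below 0 for 8 of 9 genes in both panels (-0.46 for Hmga2 with Dcn), while the medians within series lie between -0.14 and 0.14.

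Counting cells gave the same picture. In series 7, Hmga2 was found in 12 of the 16 cells with Dcn and in 19 of the 28 cells without it. In series 4 these counts were 8 of 11 and 20 of 27, and in series 6 they were 10 of 11 and 14 of 23. In series 3, where Hmga2 was rare, it was in 6 of 32 cells with Dcn and in 3 of 6 without. In series 5, all 3 cells with Dcn and 29 of the 31 without it held Hmga2. The median number of the 9 genes per cell was 6 with and 6 without Dcn in series 4, 6 and 5 in series 6, and 5.5 and 5.5 in series 7. It was lower with Dcn in series 5 (4 compared with 6, with only 3 such cells) and in series 3 (3 compared with 3.5), and higher in series 2 (2.5 compared with 1.5). Cells of series 1 could not be split, since all 58 had Dcn.

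The 9 genes also varied largely apart from each other within name series. Of their 36 pairs, 24 had a median correlation above 0 and the median of all pairs was 0.05. Pairing each of the 9 with every other gene tested gave 60% above 0 and a median of 0.02, so the share of positive pairs was near this background. The highest pair was Igf2bp1 with Igf2bp3 (0.19, positive in 5 of 7 series), then Hmga2 with Igf2bp2 (0.18) and Sox11 with Bex2 (0.17, positive in all 6 series that gave a value). With all cells as 1 stratum 35 of the 36 were above 0. The lowest pair was Hmga2 with Sox4 (-0.22, positive in 2 of 7 series). Sox4 with Sox11 had 0.12.

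The rule for the list did not use cell division, so the genes were set against it. Sox11 reached 10 CPM in 73 of 94 cells with Mki67 (77.7%, 95% interval 67.9% to 85.6%), and in 94 of 200 cells without it (47%, 39.9% to 54.2%). The share was higher in cells with Mki67 in all 7 name series for Sox11 and Hmga2, as it was for 9.57% of genes tested. For Sox11 in series 1 it was 21 of 25 compared with 13 of 33 cells, in series 4 it was 12 of 12 compared with 15 of 26, and in series 7 it was 12 of 12 compared with 19 of 32. Series 5 differed least, with 12 of 16 compared with 13 of 18, and there its correlation with Mki67 was negative (-0.11), against positive values in the other 6. Over all series, cells with Mki67 had more genes with a read, with a median of 5171 compared with 4033.5. This median was also higher with Mki67 inside each of the 7 series. It was 7786 compared with 7652 in series 1, and 6157 compared with 4121 in series 7. The part of this difference in the shares of Sox11 and Hmga2 was not tested. Totals over all series were close, with medians of 1183931 and 1217182 reads. Inside series the totals differed in both directions. Medians with and without Mki67 were 1033946 and 1682907 reads in series 1, and 1186260 and 698768 reads in series 5. After thinning to 200000 reads the shares for Sox11 were 75% and 47.6%.

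Hmga2 was also more frequent in cells with Mki67, in 59.6% (49% to 69.6%) compared with 43% (36% to 50.2%), and higher in all 7 series. These intervals overlap, and after thinning the shares were closer, at 56.5% and 46%. In series 6 it was found in 6 of 6 compared with 18 of 28 cells, and in series 2 in 6 of 17 compared with 3 of 31. Hmga2 had a positive correlation with Mki67 in each of the 7 series, from 0.02 to 0.44 with a median of 0.21, and Bex2 in each of the 6 that gave a value, with a median of 0.17. Such a constant positive sign was seen in 12.8% of genes tested, and a constant negative one in 1.65%. In all, 7 of the 9 genes had a median above 0 with Mki67, as did 71.5% of genes tested, a share not far from theirs. Sox4 and Stmn4 had medians under 0 (-0.09 each), as did 28.5% of genes tested. Since cells are not replicates, no test was made of these differences.

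**Figure D5:**
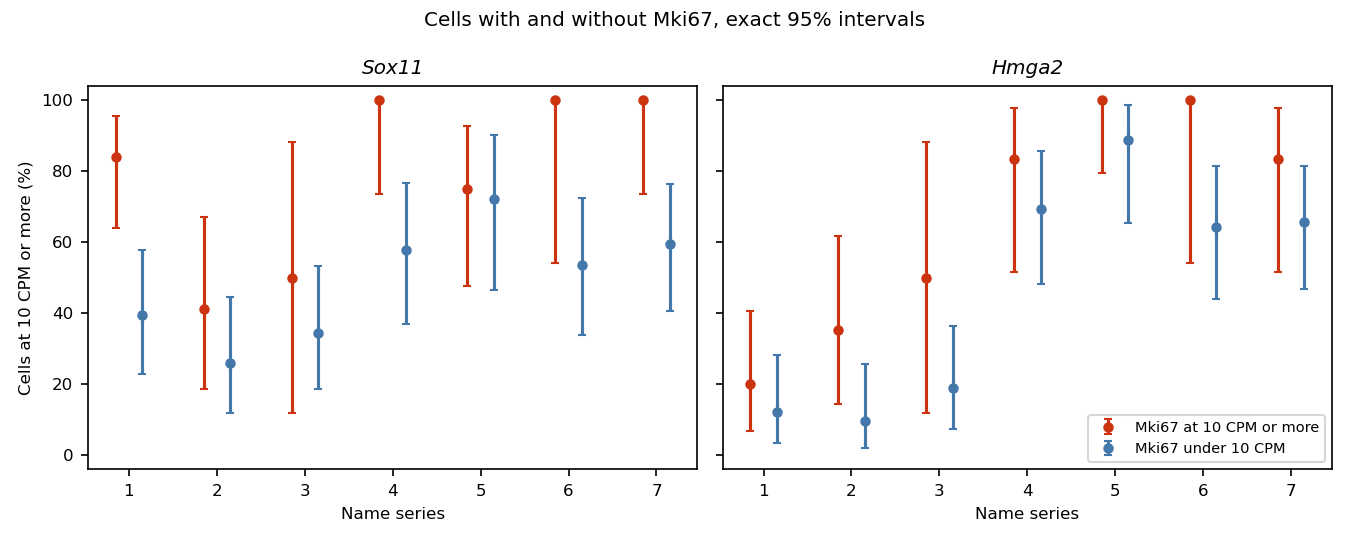
Share of cells at 10 CPM or more in Sox11 (left) and Hmga2 (right) among cells with (red) and without (blue) Mki67 at 10 CPM, per name series, with exact 95% intervals. Red lies above blue in all 7 series for both genes, with 12 of 12 cells compared with 15 of 26 for Sox11 in series 4.

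A list of 10 genes of dividing cells, Mki67 itself with Top2a, Cenpf, Birc5 and 6 others, divided the 9 genes much as Mki67 alone did. Igf2bp2 differed, since its median with Mki67 was above 0, at 0.04. All 10 had positive median correlations with Hmga2, Sox11, Igf2bp1, Igf2bp3, Bex2 and Asb4, with list medians of 0.14, 0.11, 0.10, 0.08, 0.20 and 0.09. Over all genes tested, the positive share for the same 6 genes was 60.7%, 67.2%, 53.2%, 65.2%, 68.01% and 63.1%. With Sox4 none of the 10 was positive (list median -0.09), with Stmn4 1 was, and with Igf2bp2 5 were, compared with 46.7%, 56.2% and 60.02% of all genes. The 10 genes are parts of 1 programme and are not independent of each other.

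Other genes of the pathways were followed by lists. Among genes that act on let-7, 9 of 13 were analysed and 7 tested. Of these 7, 5 had their highest share in series 4 to 7, compared with 35.1% of all genes tested. Zcchc11, which adds uridines to the let-7 precursor together with LIN28, was in 81.3% of cells. It was the 1 gene of these 7 with a higher share in each of series 4 to 7 than in each of series 1 to 3. Dicer1, which cuts the precursor, was in 43.5%, and Trim71 in 0 cells, where 3 cells would make 1.02%. Mir99ahg, the host transcript of a let-7 gene, was in 32.3% of cells, with 25% to 42.1% across the 7 series and no step between series 3 and 4. Among other listed let-7 targets, 8 of the 19 tested had their highest share in series 4 to 7, close to the 35.1% of all genes. Arid3a and Cdc34, 2 of these 19, were higher in each of series 4 to 7 than in each of series 1 to 3. Over all genes tested, 1.89% were. Cdc34 was in 37.4% of all cells. Hmga1, the paralog of Hmga2, has near-identical copies in the genome, so its listing at 10 CPM in 0 cells is uncertain.

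Of the messages that IGF2BP proteins are known to bind, Igf2 and H19 were in 98.3% and 99.3% of cells, too many for a share to differ much between series. Among the 9 such messages tested, 2 had their highest share in series 4 to 7. These were Ccnd1 and Hmga2, and Hmga2 is itself in the list chosen on that pattern. Over all genes tested 35.1% did, a share to set beside each such count below. Among 11 tested SoxC targets 8 did, including Tead2 (64.6% of cells) and Tubb3, a tubulin gene also used here as a neuron marker. Relatives of the list gave 5 of 12. Bex1 was in 25.5% of cells and ran from 8.33% in series 2 to 47.7% in series 7. Stmn1 was in 88.4%, with 100% in series 1, and Sox12 in 26.9%. None of the 20 matrix genes had its highest share in series 4 to 7. Dcn and Eln are among these 20 and were in view when the list was chosen. All lists were drawn up with earlier results of these data known.

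Genes most like the list were sought in both senses. Over the 7 name series, the mean share of the 9 genes was 39.5%, 25.2%, 38%, 62.6%, 69.3%, 59.2% and 63.6%. The shares of Map1s, B3gnt5, Tubb3, Twist1, Hs6st1, Farp1, Pak1, Tnni1, Spint2 and Satb1 had the highest Pearson correlations with it, from 0.93 to 0.96 over 7 points. Twist1, a mesenchymal transcription factor gene, had 51.7%, 27.1% and 52.6% in series 1 to 3 and 73.7%, 73.5%, 76.5% and 72.7% in series 4 to 7. Dcn had a correlation of -0.92 and Eln of -0.84. The points share the name series and their depth.

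Within name series, the closest genes were nearly all weakly related. The highest single value was that of Bex2 with its family member Bex1 (0.42 over 6 series, from 0.13 to 0.71). Bex2 also went with Cdc7 (0.29), a kinase gene of DNA replication, and with Ngfrap1 (0.27), another gene of the Bex family. Since reads could have been split among Bex genes, the values of Bex2 with Bex1 and Ngfrap1 are uncertain. Stmn4 went with the heat shock gene Hspb1 (0.39) and the actin gene Actg1 (0.36). Hmga2 went with Hirip3 (0.31), the histone chaperone gene Set (0.31) and the exonuclease gene Exo1 (0.29), and against Kalrn (-0.28) and the microfibril gene Mfap4 (-0.26, negative in all 7 series). Sox4 went with Pdap1 (0.28), Brd9 (0.28) and Mex3a (0.24), and Sox11 with Ccdc25 (0.29), Fam118b (0.27) and Med17 (0.26). Igf2bp1 went with Mical1 (0.28) and Nras (0.23), and against P4hb (-0.24). Asb4 went with Ccdc132 (0.31) and Papss2 (0.30), Igf2bp2 with Magee1 (0.28) and Igf2bp3 with Dhodh (0.28). These are the top values among the 8853 genes tested.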

How the data were processed

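The authors deposited raw counts of reads per gene, whole numbers without molecular identifiers, for 15124 genes per cell. A second deposited table holds a score named SCT for 14051 genes, rounded by the authors; it served as an alternative only. Per the submitters' processing notes, HISAT2 2.1.0, featureCounts, Seurat and the build mm10 were used; roles and annotation are not given in the sources used here. Columns were matched to samples by title. No cells had identical counts.

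Counts were divided by the cell's total and scaled to 1000000 (CPM). Shares carry exact Clopper-Pearson and medians order-statistic 95% intervals, for counting error only. Correlations were Spearman's on CPM within each name series, checked on simulated data. Cells of 1 group without a named animal are 1 sample, so no p-value was computed. Thinning used 200000 reads. Coordinates, exon lengths and 3' regions come from GENCODE M21 (GRCm38), microRNAs from RefSeq (GRCm38.p6). No doublet caller was run, since capture sites were photographed, per the labels' protocols.

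The genes and lists were chosen with earlier results of these data known. Named are the list, its fixed related genes, for each gene the 3 genes most and the 2 least correlated, if each usable series had that sign (not all are printed), and the 10 genes closest by name series. Python 3.11.15 with numpy 2.4.6 and scipy 1.17.1 was used.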

Additional observations from a re-analysis of the deposited data

How the results depend on the processing

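Alternatives were planned for 5 summary results and for each gene, and 1 (leaving out cells with 3 or more neuron markers) was added after the data were seen. The median of 4 genes per cell became 6 at 1 read and 2 at 100 CPM, as the level itself moved. The 9 genes with their highest share in series 4 to 7 became 5 at 1 read, and were 9 under all other alternatives run. The 3 genes with a median under 0 with Dcn became 5 without the 94 cells with Mki67, and 8 with all cells as 1 stratum; the 5 with Eln became 8 there. The cause was not tested. Leaving out any 1 name series gave 2 or 3 genes with Dcn, 5 to 7 with Eln and 21 to 27 of 36 pairs above 0. Shares of single genes left their interval for all 9 genes at 1 read and at 100 CPM, for 3 without series 2, for 2 without series 1, for 1 without series 5 and for 1 without Mki67 cells. Correlations of single genes moved by more than their SD between series only with all cells as 1 stratum, for 6 genes with Dcn and 4 with Eln. With all cells as 1 stratum 35 of 36 pairs were above 0, compared with 24. Depth limits the 4 cells under 100000 reads, all in series 1 to 3, where 1 read already exceeds 10 CPM; 2 of them counted among the cells with 6 or more genes, 1 being the only such cell of series 2. No paired analysis was possible because the cells form 1 group.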
